A study of Mus musculus with 4 samples.

Results

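A promoter peak induced by irradiation was a p53 ChIP-Seq peak that the study placed among those with increased binding after irradiation and that lay next to a transcription start site (TSS). The deposited list held 7384 peaks, whose numbers follow, by the study's description, the order of the fold change in p53 binding, with the largest increase first. The peaks described here carry numbers after 500 and before 6502 and have their centre within 1000 bp of a TSS of any transcript of the GENCODE M1 annotation of the mouse mm9 genome. There were 712 of them, which is 11.9% of the peaks with these numbers and 9.64% of the whole list, and 5289 peaks with these numbers lay farther away. The number chose these peaks, and with it the fold change that the study ordered them by, and nothing about the size of the change is tested on them.

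ChIP-Seq recovers DNA bound by a protein with an antibody and sequences it. The series held 4 libraries, 1 for each condition, so that the variation between cultures is unknown. They were p53 in untreated Ba/F3 cells, p53 in Ba/F3 cells 3 h after irradiation with 3 Gy, p53 in untreated HPC7 cells, and the histone mark H3K27ac in Ba/F3 cells at the same dose and time after irradiation. Ba/F3 is a mouse pro-B cell line and HPC7 a mouse line of multipotent progenitors, and the labels describe both lines as stable carriers of triple-FLAG-tagged MYSM1 under puromycin, a feature that all groups shared. The list holds a position and a number for each peak and no signal, fold or library of origin, so the direction of the change, the depth of the libraries and the cell type could not be checked on it.

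p53 is a transcription factor that is kept scarce by degradation through Mdm2 and that accumulates after DNA damage. It binds DNA as a tetramer on a pair of decamers, and its targets arrest the cell cycle, repair DNA or start apoptosis, which makes it a main mediator of the radiation response of hematopoietic cells. Promoters of widely expressed genes often lie in CpG islands, stretches that keep the CG dinucleotides lost from most of the genome, whereas many regulated promoters are poor in CG.

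The site searched was a pair of decamers without a spacer, each with 3 purines, a C, 2 bases that are A or T, a G and 3 pyrimidines. Up to 3 of the 20 positions could differ, both C and G of each core had to be intact, and the whole site had to lie within 100 bp of the centre. The sequence is its own reverse complement, so 1 pass reads both strands. The best matches among the promoter peaks, and sites at promoters of well-known p53 targets, are printed here because they show how close the promoter sites come to the consensus. All are on the plus strand of mm9, 5′ to 3′, and capitals mark the core of each decamer. The first 7 have no mismatch and are all such sites among the 712 peaks, and the one at *Hat1* lies in a family of repeated sequence.
Gm13067, chr4:149423227-149423246: gggCTTGcctggaCTTGttc
Klhl8, chr5:104303852-104303871: aggCTAGtctgggCTAGtct
Atp9a, chr2:168495645-168495664: aggCTAGctcgggCTAGctc
Gm16298, chr19:53841989-53842008: aggCTAGcctgggCTTGctc
Hat1, chr2:71226049-71226068: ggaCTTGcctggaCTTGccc
Gm12647, chr4:93727434-93727453: gggCAAGtttgggCAAGtct
Csnk1g1, chr9:65757831-65757850: agaCATGtttaggCAAGcct
Gtse1, chr15:85690375-85690394: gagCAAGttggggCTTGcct
Rps27l, chr9:66794103-66794122: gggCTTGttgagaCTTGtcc
Gdf15, chr8:73155865-73155884: aggCAAGttcaggCAAGtca
Trp73, chr4:153459966-153459985: aatCATGtctgtaCATGttc
Lrdd, chr7:148629202-148629221: agaCATGtcccagCTTGcca
Kif23, chr9:61794833-61794852: agcCTTGgtcgggCATGttc
Aen, chr7:86040823-86040842: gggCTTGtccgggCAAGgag
Trp53 and Wrap53, chr11:69393786-69393805: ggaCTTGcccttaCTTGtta

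*Gtse1*, *Rps27l* and *Gdf15* have 1 mismatch, *Trp73*, *Lrdd* and *Kif23* have 2, and *Aen* and the *Trp53* and *Wrap53* pair have 3. Only the *Csnk1g1* and *Trp73* sites and those of *Lrdd* and *Kif23* hold the core CATG among the 15 printed. A pair of whole peaks of 100 bp shows both kinds of promoter sequence found among the 712. The *Csnk1g1* peak is poor in CG and carries its site, in capitals, close to its centre. The *Btg2* peak lies in a CpG-rich promoter and has no site under this search, and capitals mark its CG dinucleotides. Once a spacer of 4 bases between the decamers is allowed, it holds a site of 3 mismatches.
Csnk1g1 peak, chr9:65757788-65757887: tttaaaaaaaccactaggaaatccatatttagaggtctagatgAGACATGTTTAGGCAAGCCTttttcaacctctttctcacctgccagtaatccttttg
Btg2 peak, chr1:135975912-135976011: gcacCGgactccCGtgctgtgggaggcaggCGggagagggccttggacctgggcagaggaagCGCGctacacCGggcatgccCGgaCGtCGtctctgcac

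The peaks were spread around the TSS, more of them downstream than upstream. The centre lay downstream of the nearest TSS at 426 of 712 peaks (59.8%, 95% Wilson confidence interval 56.2% to 63.4%) and upstream at 286. The last peaks of the list, up to number 7384, which the study classed as reduced after irradiation, served for comparison. Of these, 517 lay within 1000 bp of a TSS, and 82 of the 514 with a centre off the TSS itself were downstream (15.95%, interval 13.04% to 19.4%). The odds of a downstream position were 7.85 times higher at the induced promoter peaks (two-sided Fisher's exact test, with p = 2.6e-56 after Benjamini-Hochberg adjustment over 8 tests). Without peaks within 50 bp of the TSS the shares were 59.9% and 8.30% (odds ratio 16.5), and with the side taken from the 5′ end of the gene they were 71.8% and 30.3% (odds ratio 5.85). Peaks are not replicates, so these tests describe the list, and the intervals cover counting error only.

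**Figure D1:**
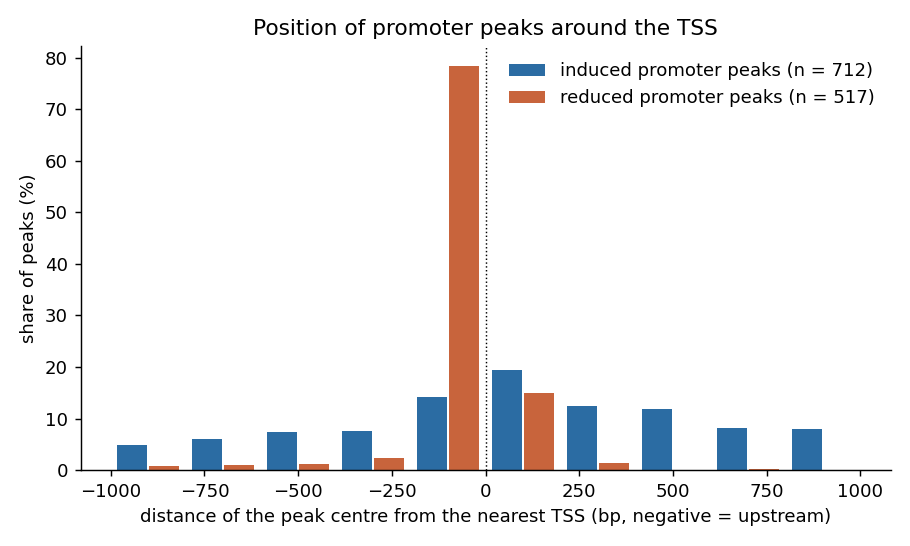
Share of promoter peaks (%, vertical) in 200 bp bins of distance from the nearest TSS (bp, horizontal, negative values upstream), for 712 induced and 517 reduced peaks. The reduced peaks pile up in the bin just upstream of the TSS, with 405 of 517, whereas the induced peaks spread over all 10 bins, with the largest bin just downstream.

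The induced peaks had a median distance of 368 bp from the TSS, with quartiles of 134 and 622.5 bp, against a median of 50 bp for the reduced ones. With upstream counted as negative, the median position was 80 bp for the induced and -45 bp for the reduced peaks. In the 200 bp just upstream of the TSS there were 101 induced peaks (14.2%) and 405 reduced peaks (78.3%). The first 200 bp downstream held 138 induced peaks, the next stretch up to 500 bp held 136 and that up to 1000 bp held 152. On the upstream side, 73 lay beyond 200 and up to 500 bp away and 112 beyond 500 bp.

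In the annotation, 339 of the 712 centres fell in introns (47.6%), 171 between genes (24.0%), 78 in a 5′ UTR (10.96%), 67 in a coding exon (9.41%), 48 in a noncoding exon (6.74%) and 9 in a 3′ UTR (1.26%). Among reduced promoter peaks 63.6% were between genes and 12.8% in introns. Many of the TSSs were internal, since 170 induced peaks (23.9%) lay more than 1000 bp inside the gene, counted from its 5′ end. *Trp73*, the p53 relative, is one of them. Its peak was 525 bp upstream of an internal TSS and 54361 bp inside the gene. *Atp9a*, encoding a phospholipid flippase, had its peak 195 bp downstream of an internal TSS and 72258 bp inside the gene. A p53 site was found at 42.4% of these 170 peaks (interval 35.2% to 49.9%) and at 31.0% of the remaining 542 (interval 27.2% to 35.01%), and 14.1% against 39.3% were CpG-island-like, a difference that was not tested.

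Base composition differed between the induced promoter peaks and both other sets. A peak was called CpG-island-like when the 500 bp around its centre had a GC content of at least 50% and at least 0.6 of the CG dinucleotides expected from its base content. This held for 237 of 712 induced promoter peaks (33.3%, interval 29.9% to 36.8%), for 28 of 5289 peaks with the same numbers farther than 1000 bp from a TSS (0.529%) and for 497 of 517 reduced promoter peaks (96.1%, interval 94.1% to 97.5%). Among windows tiled over the 1000 bp either side of the 5′ end of all protein-coding genes the share was 24.2%. The odds were 93.7 times higher than at the distal peaks (exact test, adjusted p = 7.8e-200) and 0.0201 times those of the reduced promoter peaks (exact test, adjusted p = 3.4e-127). Distance to a TSS separated the promoter peaks from the distal ones, and CpG-island-like sequence lies near TSSs in general. The contrast with the distal peaks therefore cannot be told apart from position.

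The median GC content was 53.8% at the induced promoter peaks, 45.8% at the distal peaks and 65.4% at the reduced promoter peaks. The median ratio of observed to expected CG was 0.420, 0.196 and 0.863 in the same order. Within the induced promoter peaks the ratio had quartiles of 0.228 and 0.723, so that the set spanned CG-depleted and CG-rich sequence. The median distance from the TSS was 170 bp for the 237 island-like peaks, and 56.5% were within 200 bp of it. For the 475 others, called non-island here, it was 485 bp and 22.1% were within 200 bp.

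**Figure D2:**
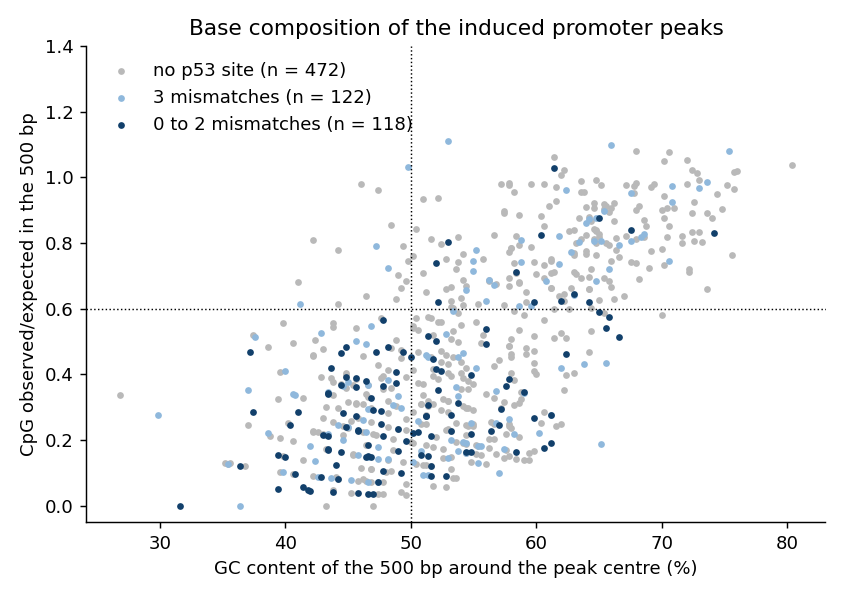
GC content (%, horizontal) and observed/expected CG ratio (vertical) of the 500 bp around each of the 712 induced promoter peaks, with dotted lines at the limits of 50% and 0.6 used to call a peak CpG-island-like. Dark points are the 118 peaks whose best p53 site has 0 to 2 mismatches, which lie mostly below the ratio of 0.6, light blue points the 122 with 3 mismatches, and grey points the 472 without a site.

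A p53 site was present at 240 of the 712 induced promoter peaks (33.7%, interval 30.3% to 37.3%). The share among the distal peaks of the same numbers was higher, 3410 of 5289 (64.5%, interval 63.2% to 65.8%; odds ratio 0.280, exact test, adjusted p = 1.5e-54). At the reduced promoter peaks it was 6 of 517 (1.16%, interval 0.533% to 2.51%; odds ratio 43.3, exact test, adjusted p = 2.3e-56), and 0.821% of the 223555 windows of 200 bp tiled over all protein-coding promoters held one. The site was thus present at a minority of the induced promoter peaks, at a share above that of promoters in general and below that of distal peaks. The share depended on the search. With at most 2 mismatches it was 16.6% against 49.6% of distal peaks and none of the reduced promoter peaks, and with a spacer of 0 to 13 bases allowed it was 57.6% against 82.0% and 10.8%, where 9.81% of all promoter windows also had one.

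The best site had 0 mismatches at 7 promoter peaks (0.983%), 1 at 43 (6.04%), 2 at 68 (9.55%) and 3 at 122 (17.1%). Of the distal peaks, 374 (7.07%), 1185 (22.4%), 1062 (20.1%) and 789 (14.9%) had 0, 1, 2 and 3. Part of the distal sites sit in families of repeated sequence, which held 1311 distal peaks (24.8%) and 24 promoter peaks (3.37%). Without them, a setting added after the data were seen, the share with a site was 32.0% at the promoter and 55.3% at distal peaks (exact test, adjusted p = 9.3e-30). The share with 0 mismatches was then 0.872% and 2.84%, and that with 1 mismatch 4.36% and 12.1%.

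**Figure D3:**
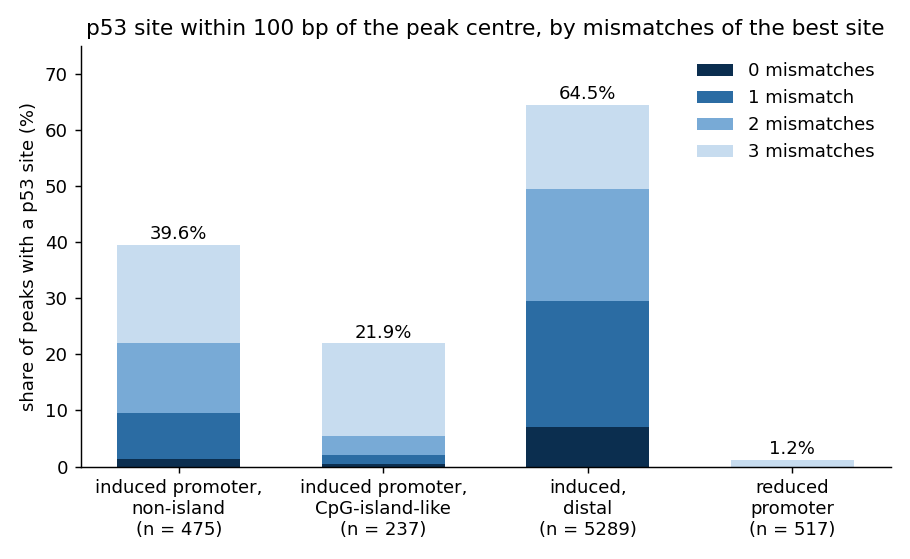
Share of peaks (%, vertical) that held a p53 site no more than 100 bp from the centre, split by the mismatches of the best site, for 475 non-island and 237 CpG-island-like induced promoter peaks, 5289 induced distal peaks and 517 reduced promoter peaks. The shares are 39.6%, 21.9%, 64.5% and 1.16%, and sites with 0 or 1 mismatch take up less of the bar at promoters than at distal peaks.

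Where a site was present, it was centred on the peak, since its middle lay within 25 bp of the peak centre in 194 of 240 promoter peaks (80.8%) and in 84.3% of the 3410 distal ones. The letters of the cores are given without a test. CATG made up 171 of the 480 promoter cores (35.6%) and 52.8% of the distal ones. CAAG and its complement CTTG made up 34.2% of the promoter cores and 25.7% of the distal ones. A CG dinucleotide stood in 86 of the 240 promoter sites (35.8%) and in 28.4% of the distal sites, and in 36.4% and 16.9% with the repeated families left out. No promoter peak held more than 2 separate sites and 8 held 2, among them *Lrdd*, *Idh1*, *Cul4a* and *Zfp451*.

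Within the induced promoter peaks, CG-rich sequence and the p53 site tended apart. The site was found at 52 of 237 island-like peaks (21.9%, interval 17.1% to 27.6%) and at 188 of 475 non-island peaks (39.6%, interval 35.3% to 44.0%; odds ratio 0.429, exact test, adjusted p = 3.0e-06). A site of at most 2 mismatches was carried by 5.49% against 22.1% (odds ratio 0.205, exact test, adjusted p = 2.8e-09). Both shares were above the 1.16% of reduced promoter peaks. The downstream peaks were more often island-like, 157 of 426 (36.9%), than the upstream ones, 80 of 286 (28.0%; odds ratio 1.503, exact test, adjusted p = 0.0171), a difference that did not pass the threshold with a limit of 500 bp (adjusted p = 0.120 by the same exact test). Windows over all protein-coding promoters leaned the same way. From 200 to 400 bp, 44.6% of those windows were island-like downstream of the TSS and 23.6% upstream. A higher share downstream is therefore not particular to the induced peaks. The downstream peaks carried a site less often, at 131 of 426 (30.8%) against 109 of 286 (38.1%; odds ratio 0.721, exact test, adjusted p = 0.0436). That last difference no longer passed the threshold in 10 alternative settings, with adjusted p up to 0.597 when the side was taken from the 5′ end of the gene.

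**Figure D4:**
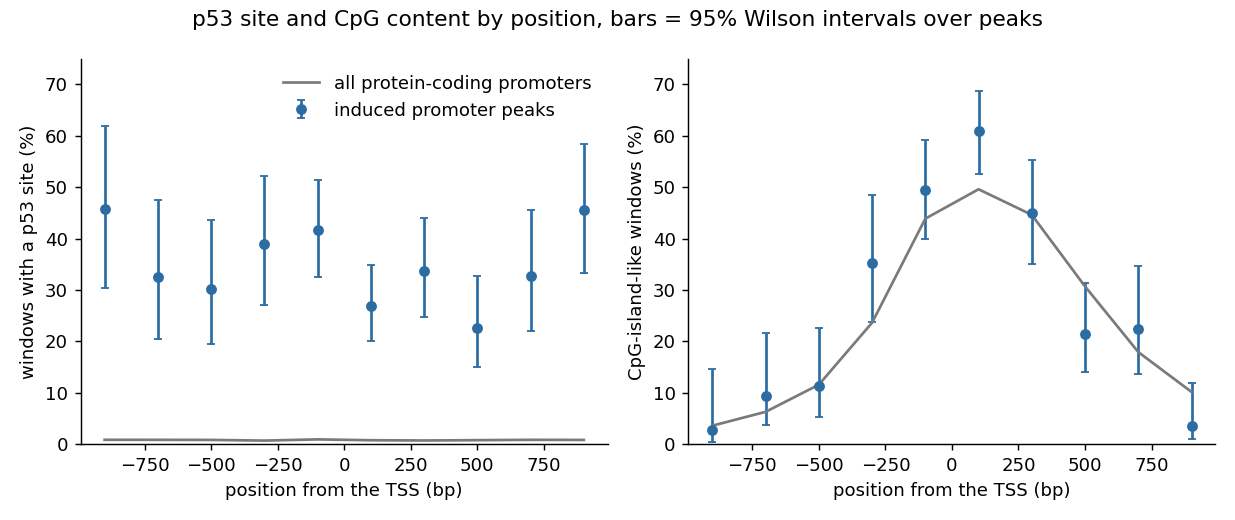
Share (%, vertical) of induced promoter peaks with a p53 site (left) and with CpG-island-like sequence (right) in 200 bp bins of position from the TSS (bp, horizontal, negative values upstream), as points with 95% Wilson intervals, and the share of windows over all protein-coding promoters as a line. Site shares lie between 22.6% and 45.7% in every bin, against a line under 1%, and the island-like share peaks at 60.9% in the first 200 bp downstream, where the line is at 49.6%.

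By bins of 200 bp the share of peaks with a site ranged from 22.6%, from 400 to 600 bp downstream (interval 14.99% to 32.6%), to 45.7%, from 800 to 1000 bp upstream (interval 30.5% to 61.8%), and was 45.6% from 800 to 1000 bp downstream (interval 33.4% to 58.4%). The bins were not tested against each other. It was 41.6% in the 200 bp upstream of the TSS and 26.8% in the 200 bp downstream. CpG-island-like sequence followed the shape of promoters in general. Just downstream of the TSS 60.9% of the induced peaks were island-like (interval 52.5% to 68.6%) beside 49.6% of all promoter windows, and in the outermost bin downstream 3.51% (interval 0.968% to 11.9%) beside 10.2%.

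By order of the numbers, in successive stretches of about 1000 numbers, the share of peaks that lay at promoters was 10.7% in the first, 14.2% in the second and 10.5% in the last. Island-like peaks were 25.2% of the promoter peaks in the first of these stretches (interval 17.96% to 34.2%) and 40.0% in the last (interval 31.1% to 49.6%). A p53 site was found at 29.9% and 40.0% in the same order, and 62.6% and 59.0% lay downstream of the TSS. The intervals of the first and last stretch overlapped for all 3 measures, which is not a test of a difference, and none was run. In the stretches between, the island-like share was 28.9%, 37.1%, 29.2% and 40.6%.

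Short sequences of other promoter factors were counted on both strands in the 200 bp around the centre. The GC box GGGCGG, bound by SP1, was present at 153 of 712 induced promoter peaks (21.5%), 8.11% of distal peaks, 86.8% of reduced promoter peaks and 16.5% of all promoter windows. Its share was 45.6% at the island-like peaks and 9.47% at the non-island ones. The ETS sequence CCGGAAG was found at 3.65% of induced and 19.9% of reduced promoter peaks and at 0.586% of distal peaks, with 2.84% of all promoter windows.

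The next 4 sequences are elements of promoters and enhancers that are less rich in C and G. The CCAAT box, bound by NF-Y, was present at 18.5% of induced, 29.2% of distal and 16.8% of reduced peaks, with 23.0% of all promoter windows. The TATA box TATAAA was present at 6.18%, 8.51% and 1.16% in the same order, with 10.1% of all windows. TTTGAA, the element of cell cycle genes called CHR, stood at 12.2%, 28.7% and 1.93%, with 13.8% of all windows. The AP-1 sequence TGANTCA, with N for any base, stood at 6.88%, 15.3% and 1.55%, with 4.54% of all windows. For each of these 6 sequences the share at the induced promoter peaks lay between those of the distal and the reduced promoter peaks. None of these sequences contains another. A match is a description of the letters in the window, and these shares were not tested.

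At the gene level, 687 of 22367 protein-coding genes (3.07%) had an induced peak within 1000 bp of a TSS. The peaks touched 803 genes of any type. The nearest gene was protein coding for 622 peaks (87.4%), a lincRNA for 19, a processed transcript for 26 and a pseudogene for 24. TSSs of coding genes on both strands lay within reach at 55 peaks (7.72%), against 69 of the reduced promoter peaks (13.3%). Since the number chose these peaks, the gene lists are given by counts beside the 3.07% of all coding genes, with no test.

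**Figure D5:**
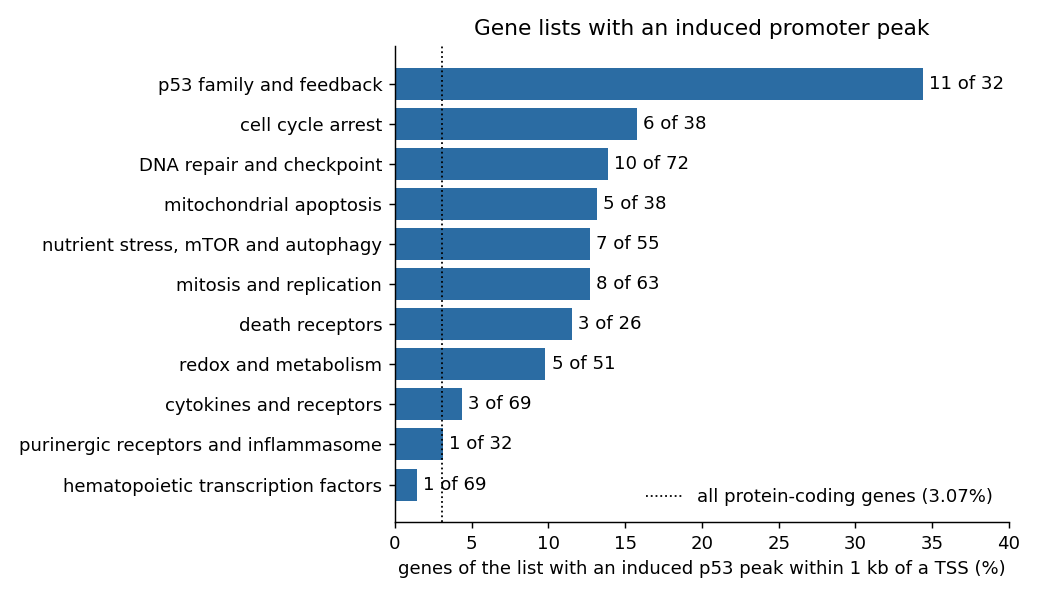
Percent of the genes of each list (horizontal) with an induced p53 peak within 1000 bp of a TSS, with the number of genes at each bar and a dotted line at the 3.07% of all protein-coding genes. The list of the p53 family and its feedback has the longest bar, 34.4%, and hematopoietic transcription factors the shortest, 1.45%.

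Of the lists, the p53 family and its feedback regulators had the largest share, with 11 of 32 genes (34.4%). One peak served *Trp53* itself and *Wrap53*, which is transcribed from the opposite strand and shares its promoter region. It lay 44 bp upstream of the *Wrap53* TSS, in sequence just below the island-like limit, with an observed/expected ratio of 0.523. *Mdm2*, the ubiquitin ligase that degrades p53, had its peak 7 bp upstream of an internal TSS, 673 bp inside the gene, in CG-rich sequence with a ratio of 0.877 and a site of 3 mismatches. *Ppm1d*, the phosphatase that switches off damage signalling, had its peak in the 5′ UTR 134 bp downstream of the TSS, with no site unless a spacer was allowed, when 1 of 2 mismatches with a spacer of 4 bases was found.

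*Usp7*, which removes ubiquitin from p53 and Mdm2, had its peak in an intron 983 bp downstream of the TSS and a site of 3 mismatches. The peak of *Ppp1r13l*, encoding the p53 inhibitor iASPP, had number 565 and lay 647 bp downstream of an internal TSS with no site. *Rps27l*, a ribosomal protein paralog induced by p53, was near the other end at number 6439, with the 1-mismatch site printed above in an island-like peak centred 67 bp upstream of a TSS. *Zfp385a*, *Trp53bp1* and *Rchy1* completed the list, all in introns and without a site. Of the 10 peaks at these genes, 5 had a site and 3 were island-like.

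Genes of cell cycle arrest had a peak at 6 of 38 (15.8%), and 5 of the 6 peaks were island-like. *Gtse1*, a microtubule-binding protein that restrains p53 in G2, had its peak 25 bp upstream of a TSS with the 1-mismatch site. *Rb1*, the retinoblastoma protein, had its peak 145 bp upstream, in the CG-richest sequence of the 6 with a ratio of 1.08 and a site of 3 mismatches. The 4 others had no site. They were *E2f7*, a repressor of E2F targets, 416 bp upstream, *Btg2*, an antiproliferative factor, 264 bp upstream, *Phlda3*, an inhibitor of Akt, in the 5′ UTR 21 bp downstream, and *Cdkn2c*, an inhibitor of CDK4 and CDK6, 982 bp downstream of an internal TSS in the only non-island peak of the group.

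Mitochondrial apoptosis had 5 of 38 genes with a peak (13.2%), and 3 of the peaks were island-like. *Apaf1*, the scaffold of the apoptosome, and *Ei24*, a membrane protein of the endoplasmic reticulum, had CG-rich peaks in the 5′ UTR without a site, at 113 bp upstream and 13 bp downstream of the nearest TSS. *Aen*, a nuclease that promotes apoptosis, had its peak 1 bp from an internal TSS with the 3-mismatch site printed above. *Siva1*, a proapoptotic protein, had its peak 930 bp downstream of the TSS with a site of 3 mismatches, and *Bmf*, a BH3-only protein, had none in its intron.

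Death receptors and their adaptors had 3 of 26 genes (11.5%), all non-island and all downstream. *Lrdd*, which encodes the PIDD protein, had its peak 38 bp downstream of a TSS with a best site of 2 mismatches. The peak of *Tnfrsf26* lay 754 bp downstream and held a site of 3 mismatches. *Eda2r*, a receptor of the TNF receptor family, had its peak 475 bp downstream, with no site unless a spacer was allowed.

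DNA repair and checkpoint genes had 10 of 72 with a peak (13.9%), of which 8 peaks were downstream and 3 had a site. *Msh6*, a mismatch repair protein, was among the 5 lowest numbers with 536, 813 bp downstream of the TSS in island-like sequence. *Rad50* and *Chek2*, which act in the sensing and signalling of double-strand breaks, had island-like peaks 140 and 272 bp downstream and no site. The peaks of *Xrcc1*, of single-strand break repair, and *Ercc5*, of nucleotide excision repair, were non-island and had sites of 3 mismatches. The *Xrcc1* peak was shared with the opposite gene *2310033E01Rik*, whose TSS was nearer. *Polk*, *Mgmt* and *Trp53bp1*, also of this list, had peaks in introns and no site.

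Genes of nutrient stress, mTOR and autophagy had 7 of 55 with a peak (12.7%), and 1 of the 7 peaks had a site. *Ddit4*, an inhibitor of mTORC1, had its peak 23 bp upstream of the TSS in island-like sequence without a site. *Sesn2*, a leucine sensor that restrains mTORC1, shared its peak with the noncoding *Gm12981*. *Tsc1*, of the complex that inhibits mTORC1, had its peak 515 bp upstream, and the peak of its partner *Tsc2* was shared with the repair gene *Nthl1* on the opposite strand. *Ctsd* and *Tpp1*, lysosomal proteases, had peaks in introns 942 and 862 bp downstream of a TSS, and the *Ctsd* peak held a site of 1 mismatch once a spacer of 7 bases was allowed. *Laptm4a*, a lysosomal membrane protein, had the only site, with 3 mismatches.

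Mitosis and replication, whose genes p53 is known to lower through indirect routes, had 8 of 63 with a peak (12.7%). *Kif23*, a kinesin of cytokinesis, had its peak 218 bp upstream of the TSS in island-like sequence, with a site of 2 mismatches. *Cdc20* and *Aurkb*, of the mitotic checkpoint and the chromosomal passenger complex, had island-like peaks in the 5′ UTR without a site. *Rrm1* and *Rrm2*, the subunits of ribonucleotide reductase, had non-island peaks 731 bp upstream and 643 bp downstream, and a site of 3 mismatches was found only at *Rrm2*. *Birc5*, encoding survivin, had its peak 697 bp upstream without a site. *Hmmr* shared a peak with *Nudcd2* on the opposite strand, with a site of 2 mismatches.

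*Mcm7*, a subunit of the replicative helicase, was 1 of the 11 genes with 2 induced promoter peaks. Number 6288 lay in an intron 266 bp downstream of an internal TSS with a site of 3 mismatches. Number 5571 lay 214 bp downstream of the start of *Mir25*, a microRNA gene inside *Mcm7*, within reach of *Mir93* and *Mir106b* as well, and had no site. The other genes with 2 peaks were *1700081L11Rik*, *Capzb*, *Cops7b*, *Gpn3*, *Gse1*, *Lcn5*, *Micall2*, *Mst1*, *Plb1* and *Ppp1r14b*. At *Mst1* the peak 88 bp upstream of the TSS had a site of 2 mismatches and the one 533 bp downstream had none. At *Cops7b*, a subunit of the COP9 signalosome, the peak 926 bp downstream had a site of 1 mismatch and the island-like one 14 bp downstream of an internal TSS had none. At *Plb1* the peak with a site, number 561, belonged to a repeated family.

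Redox and metabolic genes had 5 of 51 with a peak (9.80%), *Sesn2* among them, and none was island-like. *Acad11*, an acyl-CoA dehydrogenase, and *Abcb1b*, a drug efflux pump, had sites of 3 mismatches, and *Tap1*, the peptide transporter of antigen presentation, had a site of 2 in a peak shared with *Psmb9*. *Fuca1*, a lysosomal fucosidase, had none. Among purinergic receptors and inflammasome genes *P2rx7*, an ATP-gated channel, was the only gene of 32 (3.13%), with its peak 452 bp downstream of the nearest TSS and a site of 3 mismatches.

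Cytokines and their receptors (3 of 69, 4.35%) and hematopoietic transcription factors (1 of 69, 1.45%) were near or below the 3.07% of all coding genes. *Gdf15*, a stress cytokine, had its peak 134 bp downstream of a TSS, with the 1-mismatch site printed above. *Csf1*, the macrophage growth factor, had a site of 3 mismatches at number 514, and *Lif*, with its peak 300 bp downstream of an internal TSS, had none. The only transcription factor was *Gata3*, with a peak 863 bp downstream of an internal TSS, 17225 bp inside the gene, and no site.

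The study grouped genes by their response to irradiation in hematopoietic stem and progenitor cells of mice with and without p53, measured by RNA-Seq in other samples. The names of the genes of each cluster were taken from it, and none of its values. Cluster A, raised after irradiation only with p53 present, had an induced promoter peak at 74 of its 174 genes found in the annotation (42.5%), beside 3.07% of all coding genes. The clusters hold only genes expressed in those cells, and the share among all expressed genes is not given here. Cluster B, raised after irradiation with p53 present and classed by the study as raised or tending to rise without it, had one at 5 of 58 (8.62%) and Cluster C, lowered after irradiation, at 2 of 90 (2.22%), *Cdc20* and *Kif23*. The 74 peaks at Cluster A genes lay downstream of the TSS in 73.0% (interval 61.9% to 81.8%), against 58.3% of the other 638 (interval 54.4% to 62.1%). They were island-like in 50.0% (interval 38.9% to 61.1%) against 31.3% (interval 27.9% to 35.1%), and had a site in 39.2% (interval 28.9% to 50.6%) against 33.1% (interval 29.5% to 36.8%). Among the 550 other peaks whose nearest gene was protein coding, 57.3% lay downstream, 34.2% were island-like and 31.3% had a site. This comparison was chosen after the values were seen and was not tested.

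At the edges of the rule, the lowest number among the induced promoter peaks was 506 (*Rap2a*, a small GTPase, 646 bp from the TSS), and the next promoter peak below the limit was 486 (*Smad7*, 163 bp). The other low numbers were *Map3k12* (511), *Csf1*, *Tagln2* (519) and *Msh6*. The highest was 6496 (*Csnk1g1*, a casein kinase, 591 bp), and the next above the limit was 6512 (*Bax*, 190 bp). The preceding high numbers were *Dcaf4* (6494), *9030617O03Rik* (6490), *Pisd-ps2* (6444) and *Rps27l*. The farthest peak from a TSS was at *Gm16602* with 997 bp, and the nearest peak outside the limit, at *Clic1*, was 4 bp farther from its TSS. The nearest were at *Nubp1* and *Aen*, 1 bp from a TSS.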

How the data were processed

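The authors mapped the reads to mm9 and called p53 peaks, and the submitters' processing notes name Bowtie 1.0.0 and MACS 1.4.1. The deposited list gives a chromosome, start, end and numbered name for each peak of 100 bp. The study describes its peaks as ordered by fold change after irradiation, and the fold changes are not in the list. How peaks of several libraries were merged is not given in the sources used here, and the depth is unknown. The centre was the mean of start and end, taken as a position counted from 1. Sequence came from mm9 (NCBIM37) and genes from GENCODE M1. Families of repeated sequence were found with BLAST+ 2.17.0 as groups of at least 100 peaks linked at 80% identity over 100 bp. Shares carry Wilson intervals at 95%, and 8 two-sided Fisher's exact tests were adjusted together by the Benjamini-Hochberg method at 0.05. The site search and tests were tested on simulated data. Python 3.11.15, NumPy 2.4.6, SciPy 1.17.1 and matplotlib 3.10.9 were used.

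The peaks and gene lists were chosen with earlier results of these data known. Named are, for each list, up to 6 genes with the lowest numbers, genes with 2 peaks, peaks with a site of 0 mismatches, the 5 lowest and highest numbers and the nearest and farthest peaks. *Mdm2*, *Zfp385a*, *Rchy1*, *Trp53bp1*, *Polk*, *Mgmt*, *Tsc2*, *Hmmr*, *Idh1*, *Cul4a* and *Zfp451* were named after their values were seen, and some genes that the rule names are not reported here. Alternatives were other distance limits, TSSs, peak numbers, merging, CpG windows and site searches, and the list without repeated sequence.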

Additional observations from a re-analysis of the deposited data

How the results depend on the processing

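All 8 comparisons kept their direction in every alternative run. The lower share of p53 sites at downstream peaks missed the threshold in 10 settings. The downstream share was then 38.6% with a limit of 2000 bp, 28.8% with coding TSSs, 31.1% with the first and last 500 numbers left out, 30.8% with neighbouring peaks merged, 33.1% with the side from the 5′ end of the gene, 31.3% without peaks within 50 bp of the TSS, 42.02% with 4 mismatches, 56.3% with a spacer, 46.2% with cores not required and 30.0% without repeated sequence, a setting added after the data were seen. The adjusted p in all settings run ranged from 0.0183 to 0.597 (two-sided Fisher's exact test). The higher island-like share at downstream peaks missed it with a limit of 500 bp only, at 48.5% (exact test, adjusted p = 0.120), a setting with 448 peaks in place of 712. The cause was not tested. The other 6 comparisons stayed past the threshold throughout. Over these settings the odds ratio of island-like sequence ranged from 49.1 to 138 against distal peaks and from 0.0147 to 0.0384 against reduced promoter peaks, and that of a p53 site against distal peaks from 0.202 to 0.380. A version without soft-masked repeats was not run, because the reference sequence carries no soft masking. No paired analysis was possible because each condition had 1 library, and for the same reason no replicate could be left out.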

Other observations

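Gene families taken by the start of their symbol had induced promoter peaks at shares from 0% to 6.49%, beside the 3.07% of all protein-coding genes, and none was tested. TRIM and F-box proteins, which include the substrate receptors of ubiquitin ligases, had them at 9 of 144 genes (6.25%) and genes with the respiratory chain and ATP synthase symbols Nduf, Cox, Atp5 and Uqcr at 6 of 95 (6.32%). Genes with CD symbols had them at 5 of 77 (6.49%). Zinc finger proteins had them at 12 of 371 (3.23%) and solute carriers at 10 of 355 (2.82%). Olfactory receptors, which act in the nose, had them at 4 of 1113 (0.359%), and no keratin (of 51) or serpin (of 60) had one. Mitochondrial ribosomal proteins had them at 1 of 77 (1.30%).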
